A study of Mus musculus with 3 samples.

Results

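The genes described here are those of chromatin modifiers and remodellers, the enzymes and complexes that write, erase and read marks on histones and DNA or move nucleosomes. They were taken by name from the 3 deposited comparison tables: symbols beginning Kdm, Hdac, Chd, Brd, Arid, Tet, Dnmt or Ezh followed by a digit, symbols beginning Setd or Smarc, and Ep300 and Crebbp. Genes on chromosomes X and Y were left out, 5 in number, which gave 80 of the 12880 genes listed in any table. The RNA came from lung macrophages of C57BL/6 mice, 6 to 8 weeks old, with the LysM-GFP reporter, which makes myeloid cells fluorescent. Lung injury was set off with a nebulized saline solution of 1 mg/ml LPS, the bacterial lipopolysaccharide, and GFP-positive, Ly6g-negative, CD64-positive cells were collected at 0, 4 and 24 h with 1 library per time. All 3 samples carry the same treatment text, so whether the 0 h mice had inhaled LPS is not known, and the number of mice behind each library is not given in the sources used here. Of the 80 genes, 79 had a level in all 3 libraries. The other, Hdac11, was listed only in the comparisons with 24 h.

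Acetyltransferases such as EP300 and CREBBP add acetyl groups to histone tails, deacetylases (HDACs) remove them, and bromodomain (BRD) proteins bind them. Methyl groups are written on histones by SET domain and EZH enzymes and removed by KDM demethylases, while on DNA they are written at CG dinucleotides by DNMT enzymes and oxidized by TET enzymes. SMARC and several ARID proteins are subunits of SWI/SNF-type machines and CHD proteins are a separate family of ATP-driven remodellers, and in macrophages these systems are known for opening and closing inflammatory genes after LPS. The name rule also takes in proteins with other substrates or roles, among them SETD3, known for methylating actin, SMARCAL1, a DNA annealing helicase of replication forks, HDAC10, known for deacetylating polyamines, and the pseudogene Smarca5-ps, which may share reads with Smarca5.

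Levels below are normalized counts, that is, whole reads recovered from the deposited values and divided by 1 size factor per library. Folds divide the levels of 2 libraries and are given with a 95% counting interval in brackets, which covers counting error only. A gene is called higher or lower where its log2 ratio, with a pseudocount of 1, is at least 1 in size (2-fold). No time point had a replicate, so no fold has a replicate check, no p-value is given, and the words higher and lower describe these libraries.

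Library totals were 24825976, 20379236 and 25135476 reads in time order. The macrophage receptor gene Csf1r was present at all times, at 29976, 40025 and 29673 normalized counts, as was Fcgr1, which encodes CD64, at 2479, 7237 and 2887. Itgam, which encodes CD11b, a marker in the names of the deposited columns, was less even, at 7235, 33421 and 7385. Lyz2, the lysozyme gene that LysM names, had 43, 16 and 21 reads. Xist, transcribed from the inactive X chromosome, had 13705, 4 and 1 reads and the Y-linked Ddx3y 4, 3994 and 2357, so the sex-linked transcripts of the 0 h library differed from those of both later ones. In the comparisons with 0 h, time and the sex of the mice therefore cannot be told apart. Cell type markers moved with time as well. At 4 h against 0 h, 12 of 14 alveolar macrophage markers were at least 2-fold lower, 10 of 12 classical monocyte markers and 10 of 10 neutrophil markers at least 2-fold higher, and 14 of 16 genes of dividing cells at least 2-fold lower. The same lists at 24 h against 0 h had 2 lower, 8 higher with 2 lower, 6 of 10 higher, and 0 either way. Summed over each list at 0, 4 and 24 h, levels were 761521, 283658 and 427027 for alveolar macrophages, 138536, 559804 and 111949 for monocytes, 5033, 39733 and 8141 for neutrophils, and 17903, 7576 and 15476 for dividing cells. Single genes weigh heavily in these sums. Chi3l3 of the alveolar list stood at 601110, 209378 and 310123, and Fn1 of the monocyte list at 87223, 131482 and 25383. By gene, 9 of 12 monocyte markers were above their 0 h level at 24 h and 3 below it, Fn1 among them. Of lung epithelium markers, 5 of 12 were higher and 2 lower at 4 h against 0 h and 2 of 11 lower at 24 h against 0 h, with sums of 16072, 18474 and 16724. Lymphocyte markers summed to 116, 580 and 458, with 3 of 4 higher at 4 h and 2 of 3 at 24 h, and both erythroid genes listed were higher at both times, with sums of 51.4, 1130 and 1769. The defining neutrophil gene Ly6g and the granule genes Elane and Mpo, and the T cell genes Cd3e and Trbc1, are not among the genes listed. The part of these shifts in the results below was not tested, and in bulk RNA fewer cells of a type and less RNA per cell cannot be told apart.

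The chromatin genes as a group stood highest at 4 h and lowest at 24 h. Of the 79 with a level at all 3 times, 49 (62.0%) had their highest level at 4 h, against 40.4% of all 12481 genes with 3 levels, and 45 (57.0%) had their lowest at 24 h, against 31.7% of all genes. At 4 h against 0 h their median log2 ratio was 0.24, with 53 above 0 and 26 below, beside a median of 0.00 over all genes. At 24 h against 0 h it was -0.36, with 26 above 0 and 53 below, and at 24 h against 4 h it was -0.54, with 20 above and 60 below, again beside medians of 0.00 over all genes. All genes with exon lengths between the quartiles of the chromatin genes, a range described below, had medians nearer to these. They were 0.19 at 4 h over 0 h, -0.28 at 24 h over 0 h and -0.46 at 24 h over 4 h. The comparisons share libraries, so they are not independent of each other. All signs here are relative to the median gene. Scaling by total reads would shift every log2 ratio by about -0.15, 0.17 and 0.32 at 4 h over 0 h, 24 h over 0 h and 24 h over 4 h, and recentring on ribosomal protein genes by about 0.00, -0.58 and -0.47.

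**Figure D1:**
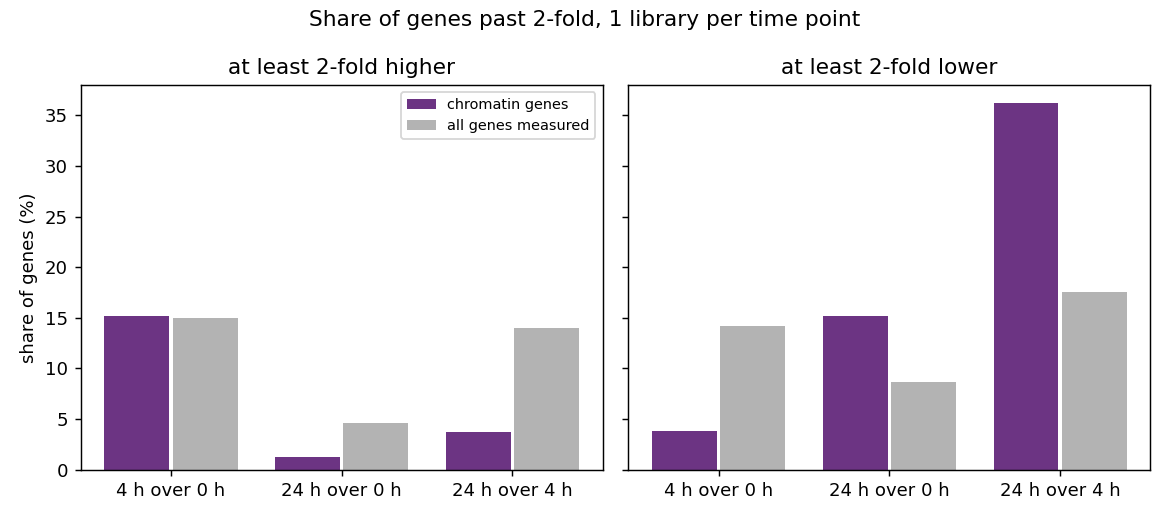
Share of genes at least 2-fold higher (left panel) or lower (right panel) in each comparison, in percent, for the chromatin genes and for all genes measured. At 24 h against 4 h, 36.2% of the chromatin genes were lower, against 17.6% of all genes, and at 4 h against 0 h 15.2% were higher, against 15.0% of all genes.

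At 4 h against 0 h, the largest difference among these genes was in Arid5a, whose product is known in mouse macrophages as an RNA-binding protein that stabilizes Il6 mRNA. Arid5a stood at 10558.5 normalized counts at 4 h, against 752 at 0 h, 14.0-fold higher (13.1 to 15.1), and at 1005 at 24 h. Tet2, a DNA 5-methylcytosine oxidase known for limiting inflammatory cytokine transcription in myeloid cells, stood at 8727 at 4 h, against 2101 at 0 h, 4.15-fold higher (3.96 to 4.36). Setdb2, a SET domain protein assigned to histone H3 lysine 9 methylation, stood at 1234, against 379, 3.25-fold higher (2.90 to 3.66). In the other direction Chd5, a remodeller of the NuRD type best known from neurons, stood at 151 at 4 h, against 1281 at 0 h, 8.48-fold lower (7.03 to 10.3). In all, 12 of the 79 genes were higher and 3 lower. Over all 12512 genes the shares were 15.0% higher and 14.2% lower, so the count higher was at the level of the whole table and the count lower, 3.80% of the chromatin genes, was under it.

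The rest of the 12 genes that were higher at 4 h lay close together, between 2.02-fold and 2.43-fold. Hdac7, a class IIa deacetylase, stood at 533 at 4 h, against 219 at 0 h, 2.43-fold higher (2.07 to 2.86). Arid4a and Arid4b, subunits of SIN3 corepressor complexes, were 2.38-fold (2.23 to 2.55) and 2.26-fold (2.05 to 2.49) higher. Kdm6b, the H3 lysine 27 demethylase JMJD3 known to be induced by LPS, stood at 28832 at 4 h, against 12416 at 0 h, 2.32-fold higher (2.27 to 2.37). Setd2, the H3 lysine 36 trimethylase of transcribed gene bodies, was 2.31-fold higher (2.19 to 2.43). The remodellers Chd1, Chd9 and Smarcad1 were 2.24-fold (2.12 to 2.37), 2.08-fold (1.93 to 2.24) and 2.02-fold (1.83 to 2.24) higher, and for the last 2 the interval reached below 2-fold. Tet1, with 37 reads at 4 h and 21 at 0 h, was 2.39-fold higher (1.37 to 4.31). Besides Chd5, the genes that were lower were the de novo DNA methyltransferase Dnmt3a, at 1673 at 4 h against 3756 at 0 h, 2.25-fold (2.11 to 2.39), and the maintenance methyltransferase Dnmt1, at 1451 at 4 h against 3100 at 0 h, 2.14-fold with an interval that reached just below 2-fold.

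The DNA before the starts of 4 of these genes is shown because they had the largest difference upward (Arid5a and Tet2) or downward (Chd5) at 4 h or the largest downward at 24 h against 0 h (Arid5b, described below), and because the TET and DNMT enzymes act on the CG dinucleotide. Each line gives the 250 bases before a RefSeq start in GRCm38 (mm10), 5′ to 3′ on the gene's strand, with every CG in capitals.
Arid5a, chr1:36307483-36307732, plus strand: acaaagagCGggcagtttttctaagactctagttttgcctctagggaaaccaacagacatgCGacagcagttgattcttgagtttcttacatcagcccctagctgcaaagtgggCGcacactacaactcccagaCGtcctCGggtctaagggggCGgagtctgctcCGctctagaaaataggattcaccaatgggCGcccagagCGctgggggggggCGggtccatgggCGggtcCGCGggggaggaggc
Tet2, chr3:133544391-133544640, minus strand: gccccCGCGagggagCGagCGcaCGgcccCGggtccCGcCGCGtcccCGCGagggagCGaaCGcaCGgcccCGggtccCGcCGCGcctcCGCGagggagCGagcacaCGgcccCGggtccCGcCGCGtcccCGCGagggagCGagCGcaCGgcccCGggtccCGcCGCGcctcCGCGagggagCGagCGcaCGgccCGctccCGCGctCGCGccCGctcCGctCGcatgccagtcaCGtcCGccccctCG
Chd5, chr4:152338401-152338650, plus strand: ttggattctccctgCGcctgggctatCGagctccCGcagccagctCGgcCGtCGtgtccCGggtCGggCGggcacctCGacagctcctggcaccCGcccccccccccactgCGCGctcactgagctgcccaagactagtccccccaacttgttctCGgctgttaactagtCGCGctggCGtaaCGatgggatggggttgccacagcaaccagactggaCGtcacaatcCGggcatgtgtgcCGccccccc
Arid5b, chr10:68278727-68278976, minus strand: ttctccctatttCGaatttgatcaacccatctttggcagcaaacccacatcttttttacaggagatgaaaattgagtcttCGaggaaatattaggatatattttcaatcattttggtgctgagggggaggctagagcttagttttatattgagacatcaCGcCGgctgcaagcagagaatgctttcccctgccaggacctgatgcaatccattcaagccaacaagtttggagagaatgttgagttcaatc
The counts of CG were 13 before Arid5a, 51 before Tet2, 21 before Chd5 and 4 before Arid5b. RefSeq windows were at hand for 61 of the 80 genes, and taking each gene's window with the most CG, the median was 23 (range 0 to 51), against 6 over 27025 genes of every type. The latter were not limited to the 12880 genes listed here, so the medians are not of like sets. Tet2 had the most of the 61. Both strands of the members' 87 windows were searched for 5 motifs. A form of the NF-kappaB site, GGG and TTTCC with any 2 bases between them, was in 2.30% of them, against 1.41% of all 32851 windows, TGANTCA (AP-1) in 4.60%, against 6.75%, and the core of the interferon-stimulated response element, GAAA repeated after any 2 bases, in 2.30%, against 2.98%. TGACGTCA (the cyclic AMP response element) was in 0 of 87, against 1.55%, and TTTGGCGC or TTTCCCGC (E2F) in 3.45%, against 1.30%. None of these letters were in the windows printed above. Among the genes higher at 4 h, Arid4b had the match to the interferon-stimulated core, while Kdm6b, Arid4a and Chd1 had no window and were not searched. A match is a string of letters and not a bound site.

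**Figure D2:**
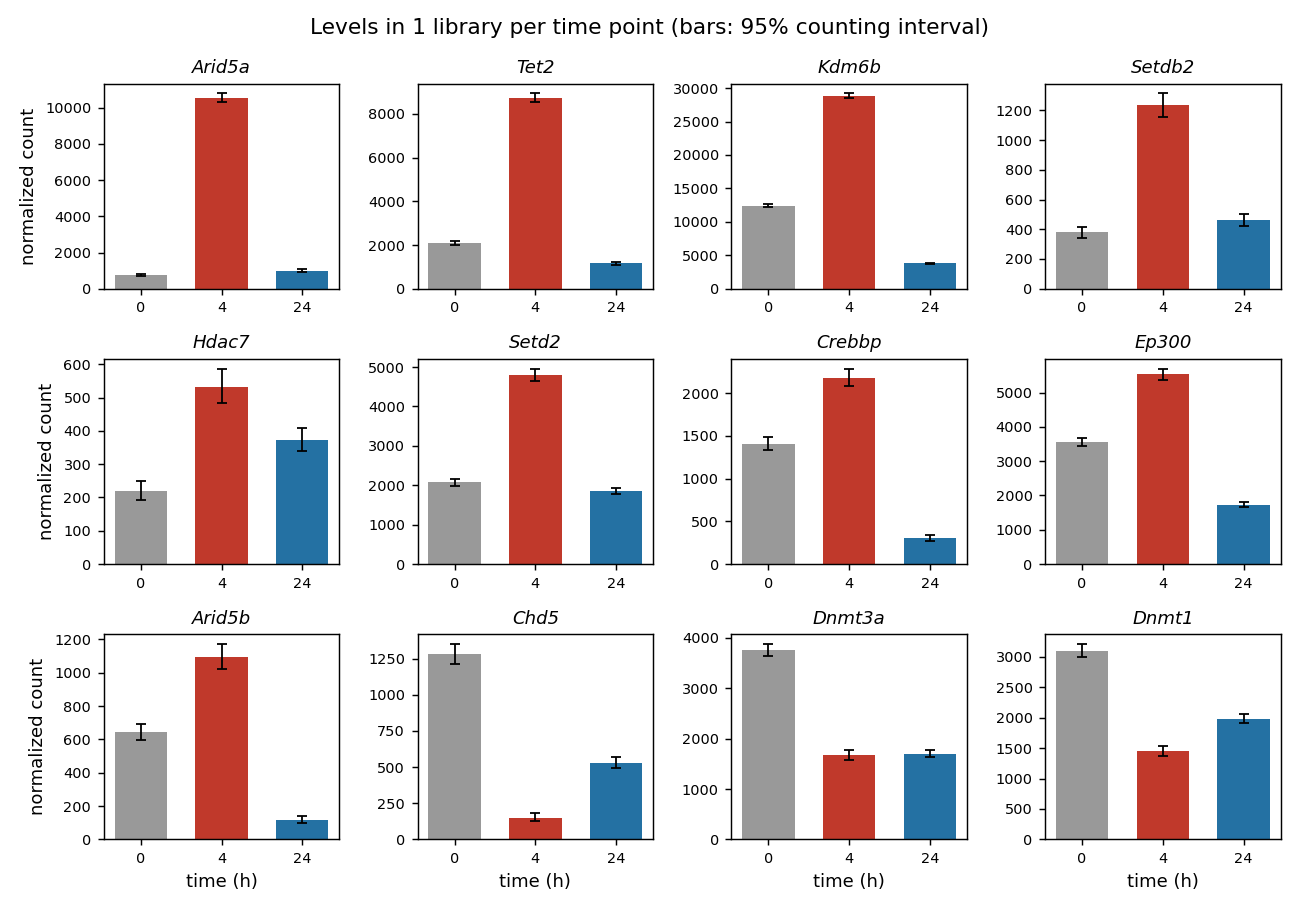
Normalized counts of 12 chromatin genes at 0, 4 and 24 h, 1 library per time point, with bars from 0 and 95% counting intervals as lines. Arid5a (752, 10558.5 and 1005) and Tet2 (2101, 8727 and 1155) peak at 4 h, Crebbp (1409, 2181 and 306) and Arid5b (644, 1095 and 117) are lowest at 24 h, and Chd5 (1281, 151 and 531) is lowest at 4 h.

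At 24 h against 0 h, the chromatin genes called were nearly all lower. Arid5b, a DNA-binding partner of the PHF2 demethylase, stood at 117 normalized counts at 24 h, against 644 at 0 h, 5.52-fold lower (4.60 to 6.66). Hdac4, a class IIa deacetylase, stood at 232, against 1096, 4.73-fold lower (4.15 to 5.41), and Crebbp, the acetyltransferase CBP, at 306, against 1409, 4.61-fold lower (4.11 to 5.18). Kdm6b, which had been higher at 4 h, stood at 3773 at 24 h, against 12416 at 0 h, 3.29-fold lower (3.18 to 3.40). In all, 12 of the 79 genes (15.2%) were lower and 1 (1.27%) higher, against 8.64% lower and 4.57% higher over 12310 genes. This count depends on the scaling. With total reads 6 (7.59%) were lower, against 6.73% of all genes, so the share was near that of the whole table, and recentred on ribosomal protein genes 34 (43.0%) were, against 25.1%.

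The other genes that were lower at 24 h than at 0 h came mostly from the remodelling complexes. Chd3, Chd5, Chd7 and Chd4 were 3.18-fold (2.88 to 3.51), 2.41-fold (2.20 to 2.65), 2.23-fold (2.09 to 2.39) and 2.15-fold (2.09 to 2.21) lower, and of these Chd3, Chd4 and Chd5 encode alternative motors of the NuRD complex. Dnmt3a was 2.21-fold lower (2.09 to 2.33), Ep300 2.06-fold (1.95 to 2.18), and the SWI/SNF subunit genes Arid1b and Smarcc2 2.06-fold (1.91 to 2.23) and 2.05-fold (1.96 to 2.14). For Ep300, Arid1b and Smarcc2 the interval reached below 2-fold. The only gene called higher was Smarcd3, encoding a SWI/SNF subunit, with 64 reads at 24 h and 23 at 0 h, 2.45-fold (1.50 to 4.13), and 33.0% of its exon length is overlapped by exons of Chpf2, so its reads are uncertain.

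With 4 h as the baseline, most calls at 24 h were downward. Of 80 genes, 29 (36.2%) were lower and 3 (3.75%) higher, against 17.6% lower and 14.0% higher over 12578 genes. With scaling by total reads the split was 17 lower and 6 higher, against 12.2% lower and 22.7% higher over all genes. Arid5a was 10.5-fold lower (9.89 to 11.2) and Arid5b 9.39-fold lower (7.85 to 11.3). Kdm6b stood at 3773 at 24 h, against 28832 at 4 h, 7.64-fold lower (7.40 to 7.89), Tet2 at 1155, against 8727, 7.56-fold lower (7.14 to 8.01), and Crebbp at 306, against 2181, 7.13-fold lower (6.37 to 8.00). Next came Tet1, 4.08-fold lower (2.16 to 8.18) on 14 reads at 24 h and 37 at 4 h, and Hdac4, 3.46-fold lower. Chd1, Ep300, Chd9, Chd7, Smarca5-ps and Chd3 followed at 3.27-fold, 3.20-fold, 3.03-fold, 2.92-fold, 2.92-fold and 2.84-fold lower. The 3 genes that were higher were Chd5, at 531 at 24 h against 151 at 4 h, 3.51-fold (2.89 to 4.31), Smarcd3, 2.44-fold (1.41 to 4.44), and Hdac11, with 23 reads at 24 h and 2 at 4 h, 7.44-fold (1.84 to 65.1).

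**Figure D3:**
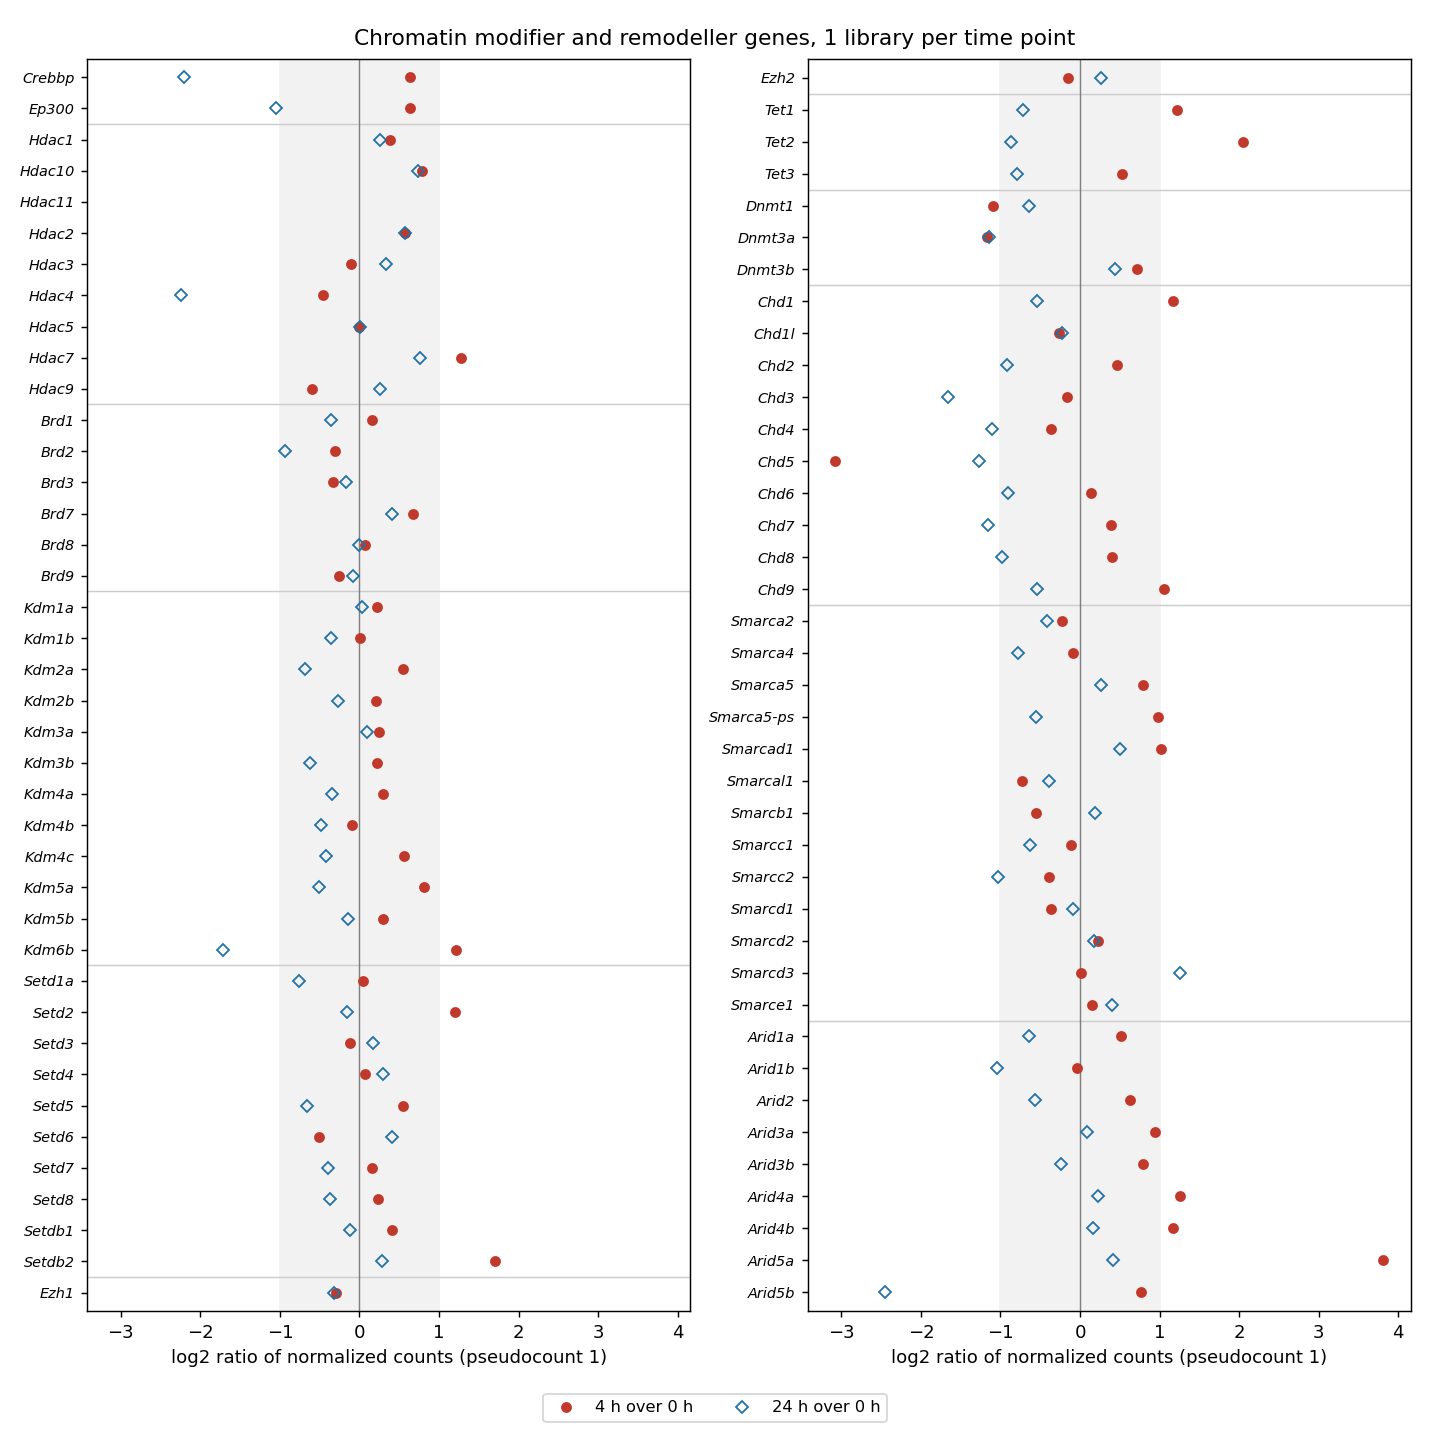
Log2 ratios of normalized counts of 79 of the 80 chromatin genes, grouped by family, at 4 h over 0 h (filled circles) and 24 h over 0 h (open diamonds), 1 library per time point, with the grey band marking less than 2-fold and no points for Hdac11, which has no 0 h level. Arid5a at 3.81 and Chd5 at -3.08 stand at the ends at 4 h, and Arid5b, Hdac4 and Crebbp lie below -2 at 24 h.

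Taken by role, both acetyltransferase genes were highest at 4 h and lowest at 24 h. Ep300 stood at 3560, 5526 and 1726 normalized counts at 0, 4 and 24 h, and Crebbp at 1409, 2181 and 306. Both were 1.55-fold higher at 4 h than at 0 h, short of the threshold, and past it on the lower side at 24 h against either time. Over all genes 8.64% were lower at 24 h against 0 h and 17.6% against 4 h. Among all genes with exons of 6000 nt or more, a length both reach, the shares were 24.2% and 42.2%. For Ep300 the call against 0 h was marginal, with an interval from 1.95-fold and a log2 ratio of -0.88 with total reads. Among the deacetylases, of the 8 with a level at 0 h, 7 lay above 0 and 1 below on the log2 scale at 24 h against 0 h, with a median of 0.29, or -0.28 when recentred on ribosomal protein genes, and the 1 below was Hdac4. Over all genes 6146 of 12310 lay above 0 in this comparison. The class I enzymes that act in nuclear corepressor complexes differed by less than 2-fold in every comparison: Hdac1 stood at 457, 594 and 545, Hdac2 at 887, 1319 and 1322, and Hdac3 at 973, 904 and 1227. Hdac5, of class IIa like Hdac4 and Hdac7, stood at 1816, 1810 and 1828, and Hdac9, of the same class, at 135, 88.9 and 162. Hdac10 stood at 147, 254 and 244. The deposited table places Hdac4 at the coordinates of Hdac5 on chromosome 11, while RefSeq puts it on chromosome 1, and their counts differ. Which locus the reads under the name Hdac4 came from was not tested.

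Among the 7 bromodomain genes none was past 2-fold in either comparison with 0 h, although recentring on ribosomal protein genes put Brd2 at -1.52 on the log2 scale at 24 h over 0 h. So recentred, 25.1% of all genes were at least 2-fold lower there. Brd2, a BET protein that binds acetylated histones, was the most abundant of them per length, at 2491, 2005 and 1297 normalized counts per kb of exon, and its level was 1.92-fold lower (1.87 to 1.97) at 24 h than at 0 h. Brd7, a subunit of the PBAF complex, stood at 1470, 2347 and 1953, and Brd8, Brd9, Brd1 and Brd3 stayed within 1.43-fold in every comparison.

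Of the 12 demethylase genes, 11 were above 0 on the log2 scale at 4 h against 0 h and all 12 below 0 at 24 h against 4 h, with medians of 0.27 and -0.56. Over all genes 6272 of 12512 were above 0 and 6280 of 12578 below 0 in these comparisons. With total reads the medians were 0.11 and -0.24. That scaling would put Kdm1b (0.01) below 0 at 4 h, and Kdm1a (-0.19) and Kdm3a (-0.15) above 0 at 24 h over 4 h. Kdm6b had the highest mean level per length of all 80 genes over the 3 libraries, at 1866, 4333 and 567 normalized counts per kb of exon at 0, 4 and 24 h, and it was the only demethylase past 2-fold against 0 h at either time. Recentred on ribosomal protein genes, Kdm2a, Kdm3b, Kdm5a and Kdm4b were past it as well at 24 h, lower like 25.1% of all genes under that scaling. Kdm5a and Kdm2a, demethylases of H3 lysine 4 and lysine 36, were 2.49-fold (2.34 to 2.65) and 2.35-fold (2.22 to 2.48) lower at 24 h than at 4 h. With total reads Kdm6b was the only demethylase past 2-fold there. Kdm1a, the amine oxidase LSD1, stood at 1264, 1471 and 1293 normalized counts, and Kdm3a, a demethylase of H3 lysine 9, at 1224, 1448 and 1304.

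The SET domain and Ezh genes, 12 in number, held 2 that were higher at 4 h than at 0 h, Setdb2 and Setd2, against 15.0% of all genes. Lower at 24 h than at 4 h were 3, against 17.6% of all genes. These were Setdb2, Setd2 and Setd5, by 2.67-fold (2.41 to 2.97), 2.58-fold (2.45 to 2.72) and 2.30-fold (2.17 to 2.44). With total reads Setd5 was not called there and Setd6 was called higher, beside 12.2% lower and 22.7% higher over all genes. Recentred on ribosomal protein genes 7 were lower, beside 29.9% of all genes. None was called at 24 h against 0 h, although recentring put Setd1a and Setd5 past 2-fold lower, beside 25.1% of all genes. Ezh2, the H3 lysine 27 methyltransferase of Polycomb complex PRC2 and the counterpart of Kdm6b, stood at 527, 473 and 630 normalized counts, and its paralogue Ezh1 at 1168, 948 and 933. Setd8, which methylates H4 lysine 20 and led this group per length, stood at 1092, 1286 and 842 normalized counts per kb of exon. Setd1a, an H3 lysine 4 methyltransferase, stood at 1536, 1580 and 910 normalized counts, but exons of other genes overlap 53.7% of its exon length, so its reads are uncertain.

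The TET genes on one side and Dnmt1 and Dnmt3a on the other had opposite signs at 4 h. All 3 TET genes were above 0 on the log2 scale at 4 h against 0 h, Tet2 and Tet1 past 2-fold and Tet3 at 3995 normalized counts, against 2778, 1.44-fold (1.37 to 1.51). Over all genes 6272 of 12512 were above 0 there, with 15.0% past 2-fold higher and 14.2% lower. Of the 3 DNMT genes, Dnmt3a and Dnmt1 were lower and Dnmt3b, with few reads, stood at 76.2 at 4 h, against 45.8 at 0 h. At 24 h Dnmt3a stayed at 1703, close to its 1673 at 4 h, while Dnmt1 stood at 1984, 1.37-fold higher (1.27 to 1.47) than at 4 h. Dnmt1 maintains methylation behind replication forks together with Uhrf1, which stood at 736, 96.5 and 389 at 0, 4 and 24 h, and 15 of 16 dividing-cell genes were below their 0 h level at 4 h as well, Mki67 being the exception. The part of cell division in the Dnmt1 values was not tested.

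All 10 genes of the Chd family were below 0 on the log2 scale at 24 h against 0 h, with a median of -0.95. Over all genes 6164 of 12310 were below 0. Genes with exons of 6000 nt or more, a length all the Chd genes but Chd1l reach, had a median of -0.51. With total reads the Chd median was -0.78, and recentred on ribosomal protein genes -1.53. Past 2-fold were 4 of 10, against 8.64% of all genes and 24.2% of those with exons of 6000 nt or more. With total reads 2 were, Chd3 and Chd5, against 6.73% of all genes. Relative to 4 h, 7 of 10 were at least 2-fold lower at 24 h, against 17.6% of all genes and 42.2% of those with such exons. With total reads 6 were, against 12.2% of all genes. Chd4, the main motor of NuRD, led the family per length at 1811, 1412 and 842 normalized counts per kb of exon. Its relative Chd5 was far below it per length at every time, at 135, 15.9 and 56.0 normalized counts per kb of exon. Chd8, a regulator of beta-catenin targets, stood at 3221, 4259 and 1634 normalized counts. Like Hdac4, Chd7 is placed by the deposited table at the coordinates of another member, Chd3, while RefSeq has it on chromosome 4, and the 2 genes' counts differ.

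Of 13 SMARC genes, 1 was higher at 4 h than at 0 h (Smarcad1), 1 higher and 1 lower at 24 h than at 0 h (Smarcd3 and Smarcc2), and 1 higher and 1 lower at 24 h than at 4 h (Smarcd3 and Smarca5-ps). Over all genes 15.0% were higher at 4 h. At 24 h the shares were 4.57% higher and 8.64% lower against 0 h, and 14.0% and 17.6% against 4 h. With total reads Smarcad1 and Smarcc2 were not called, and Smarcb1 was called higher at 24 h over 4 h, as were 22.7% of all genes. Recentred on ribosomal protein genes, 0 were higher and 4 lower at 24 h against either time. The shares of all genes so recentred were 1.29% higher and 25.1% lower against 0 h, and 6.89% and 29.9% against 4 h. Smarca4, the SWI/SNF ATPase BRG1, stood at 4557, 4276 and 2657 normalized counts, and the alternative ATPase gene Smarca2 at 1509, 1287 and 1127. The core subunit genes Smarcb1 and Smarce1 stood at 1214, 826 and 1379 and at 643, 716 and 850, and Smarcd2, known from granulocyte development, had the highest mean per length, at 885, 1038 and 996 normalized counts per kb of exon. Of 9 ARID genes, 8 were above 0 at 4 h against 0 h and 3 of them past 2-fold. Over all genes 6272 of 12512 were above 0 and 15.0% past 2-fold higher. Arid5b and Arid1b were lower at 24 h against 0 h, and with total reads Arid5b alone. Relative to 4 h, 8 of 9 were at least 2-fold lower at 24 h, but with total reads 2, Arid5a and Arid5b, against 12.2% of all genes. The shares to set beside the 8 are 17.6% of all genes and 42.2% of those with exons of 6000 nt or more. All the ARID genes but Arid3a, Arid3b and Arid4a reach that length. The SWI/SNF subunit genes Arid1a and Arid2 stood at 3807, 5454 and 2438 and at 1648, 2553 and 1111 normalized counts. Arid3a, a DNA-binding factor, stood at 845, 1629 and 901, just under 2-fold at 4 h against 0 h.

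Exon length went with these ratios. The merged exons of the 80 genes had a median length of 5742 nt, from 1660 nt for Smarcb1 to 14376 nt for Tet1, against a median of 3227 nt over the 12744 genes with a length. Across the 79 genes the log2 ratio of 24 h to 0 h fell with the logarithm of exon length (Pearson r = -0.61, Spearman rho = -0.68), and across 12189 genes of all kinds it did so too (r = -0.35, rho = -0.42). These correlations are across genes that share the same libraries. At 4 h against 0 h they were weak, at r = 0.13 over the chromatin genes and 0.09 over all genes. Exons of 6000 nt or more were found in 39 chromatin genes, of which 11 were lower at 24 h relative to 0 h and 25 relative to 4 h, while 24.2% and 42.2% of all genes of that length were. Of the 40 with shorter exons measured against 0 h, 1 was lower at 24 h, namely Smarcc2. Among all genes the shares lower were 3.99% below 2000 nt, 5.20% from 2000 to 4000 nt and 8.37% from 4000 to 6000 nt.

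When both sides were held to exon lengths between the quartiles of the chromatin genes, an alternative added after seeing the data, the shares lower at 24 h came close together. Of the 40 chromatin genes in that range, 15.0% were lower at 24 h than at 0 h, against 12.1% of all genes in it, and 27.5% lower at 24 h than at 4 h, against 25.6%. Genes that were higher made up 0.00%, against 2.31%, at 24 h over 0 h and 0.00%, against 7.02%, at 24 h over 4 h. At 4 h against 0 h, 17.5% of the chromatin genes in the range were higher and 2.50% lower, against 17.5% and 12.1% of all genes in it.

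**Figure D4:**
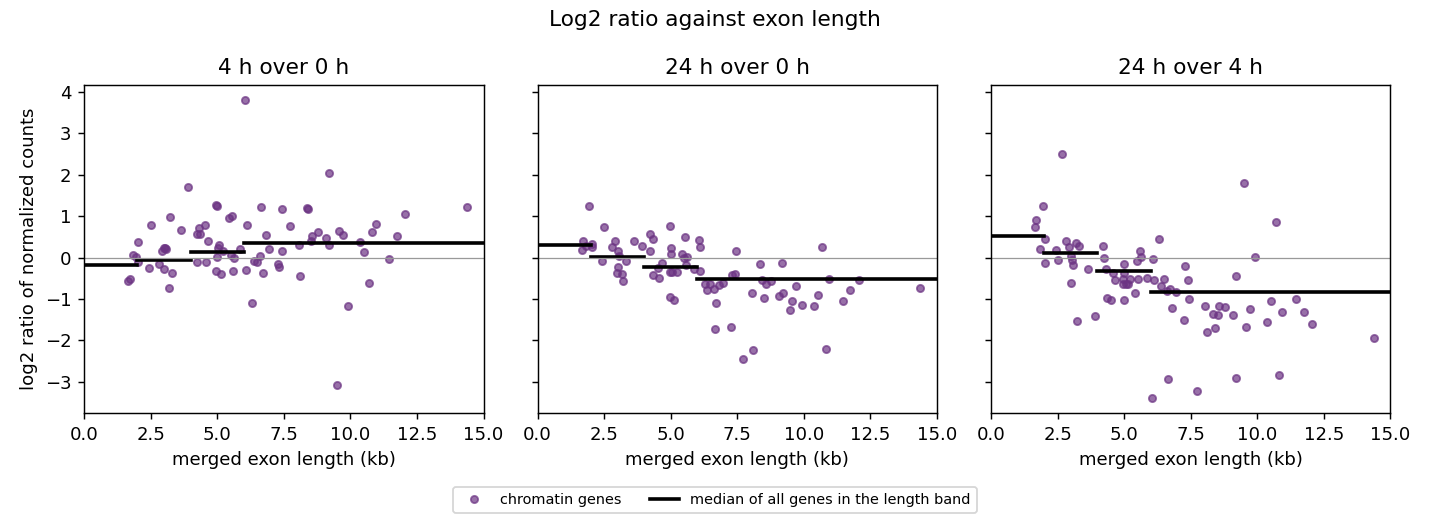
Log2 ratio of normalized counts against merged exon length in kb for the chromatin genes (points), with the median of all genes in each length band (black lines), in the 3 comparisons. Among genes with exons of 6000 nt or more, the median of all genes was 0.35 at 4 h over 0 h, -0.51 at 24 h over 0 h and -0.82 at 24 h over 4 h, and that of the chromatin genes 0.40, -0.72 and -1.20.

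Further chromatin genes, on lists that the name rule does not reach, are given as counts with the members at either end of each list. The shares of all genes to read these counts against are 15.0% higher and 14.2% lower at 4 h over 0 h, 4.57% and 8.64% at 24 h over 0 h, and 14.0% and 17.6% at 24 h over 4 h. Of 25 Polycomb genes, 3 were higher and 1 lower at 4 h than at 0 h, from Cbx2 at -2.23 to Jarid2, a PRC2 cofactor, at 2.30 on the log2 scale. Against the same baseline 1 was higher and 0 lower at 24 h, from Asxl2 at -0.83 to Cbx6 at 1.68, and at 24 h against 4 h 3 were higher and 5 lower, from Jarid2 at -2.09 to Cbx2 at 2.85. Of 26 MLL-type and other histone methyltransferase genes, 2 were higher and 0 lower at 4 h, from Smyd3 at -0.73 to Suv39h2 at 2.24. At 24 h 8 were lower than at 0 h and 11 lower than at 4 h, and 0 and 1 were higher. The ends were Dot1l, the H3 lysine 79 methyltransferase, at -2.40 and Suv420h2 at 0.62 against 0 h, and Mll5 at -2.53 and Suv420h2 at 1.32 against 4 h.

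Of 14 other acetyltransferase genes and their partners, 2 were higher and 1 lower at 4 h than at 0 h, from Myst4 at -1.71 to Kat2b at 1.14, 3 were lower at 24 h than at 0 h (Myst4 at -2.57 to Hat1 at 0.44) and 5 lower than at 4 h (Myst3 at -2.12 to Hat1 at 0.79), with 0 higher in both. Of 7 sirtuin genes, 1 was higher and 1 lower at 4 h, Sirt1 at 1.21 and Sirt5 at -2.65. None of the 7 was called at 24 h against 0 h (Sirt2 at -0.23 to Sirt4 at 0.57), and against 4 h 1 was higher and 0 lower (Sirt1 at -0.85 to Sirt5 at 2.89). Of 19 genes of HDAC corepressor complexes, 1 was higher at 4 h than at 0 h, Sap30 at 1.67, and 0 were lower. By 24 h 1 was higher and 4 lower than at 0 h (Gatad2b, of NuRD, at -2.91 to Sap30 at 1.35), and against 4 h 3 were lower (Gatad2b at -2.53 to Mbd3 at 0.90).

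Of 18 other remodelling subunit genes, 4 were higher and 0 lower at 4 h than at 0 h (Ruvbl1 at -0.24 to Atrx at 1.89) and 2 lower at 24 h (Ep400 at -1.21 to Bcl7c at 0.76), and of 19 measured at 24 h against 4 h 7 were lower (Atrx at -1.96 to Bcl7a at 0.71). Of 7 other demethylase genes, 2 were higher and 1 lower at 4 h than at 0 h. Jhdm1d, encoding the demethylase KDM7A, stood at 22476 normalized counts at 4 h, against 2314 at 0 h (log2 ratio 3.28), and Hr, encoding a JmjC corepressor, at 133, against 2716 (-4.34). At 24 h Jhdm1d stood at 3339 and Hr at 279, and the list held 1 lower gene against 0 h (Hr at -3.28, with Jhdm1d at 0.53 at the upper end) and 1 higher and 3 lower against 4 h (Jhdm1d at -2.75 to Hr at 1.06). Of 11 partners of DNA methylation, 2 were higher and 3 lower at 4 h, from Uhrf1 at -2.92 to Gadd45a at 1.81, 1 was lower at 24 h against 0 h (Gadd45b at -1.39 to Apobec1 at 0.41), and 3 were higher and 2 lower against 4 h (from Gadd45b at -2.34 up to Uhrf1, 4.03-fold higher).

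The authors' deposited log2 fold changes, which are shrunken toward 0, put fewer chromatin genes past a size of 1. In the authors' deposited table of 4 h against 0 h these were Arid5a at 2.50, Tet2 at 1.53, Setdb2 at 1.28 and Chd5 at -2.13. In the authors' deposited table of 24 h against 0 h they were Arid5b at -1.35, Hdac4 at -1.31, Crebbp at -1.30, Kdm6b at -1.12 and Chd3 at -1.07. Over all genes, the authors' deposited tables put 8.86% above 1 and 9.02% below -1 at 4 h over 0 h, 0.539% and 2.14% at 24 h over 0 h, and 7.26% and 10.2% at 24 h over 4 h, where the chromatin genes had 1 and 17.

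The calls were repeated under 2 other rules. A pseudocount of 10 gave 11 higher and 3 lower at 4 h (13.2% and 12.6% of all genes), 0 and 12 at 24 h over 0 h (3.30% and 7.34%), and 2 and 27 at 24 h over 4 h (12.1% and 16.1%). Calling only genes whose whole counting interval lay beyond 2-fold gave 9 higher and 2 lower at 4 h (10.6% and 9.19% of all genes), 0 and 9 at 24 h over 0 h (1.76% and 5.53%), and 1 and 24 at 24 h over 4 h (7.89% and 13.3%).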

How the data were processed

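Bulk RNA sequencing of sorted lung macrophages was analysed from 3 tables, each of which compares 1 library with 1 other. Per the submitters' processing notes the authors used DESeq2, with no version, and the build mm10. No source used here names the aligner, the counter or the annotation, and how reads of overlapping or paralogous genes were shared out is not known. Each deposited signal value is a count of reads over a size factor set within its table's pair, and whole reads were recovered for 100% of values within 0.001 reads. The tables list genes with a mean above 10. The deposited log2 fold changes are shrunken, per the values. The 6 columns of averages repeat the library columns and were not used. The first column of the table of 24 h against 0 h is headed 4 h, but it holds the 0 h library's reads for 12310 of 12310 genes. It was given to no sample, and 0 h levels come from the other table. Repeated rows, 20 in all, were dropped.

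Levels use size factors from the median of ratios (1.07, 0.788 and 1.22 at 0, 4 and 24 h). The 95% intervals of folds are exact (Clopper-Pearson), and those of levels are exact Poisson intervals. Both reflect the error of counting alone, as no time point has a replicate. PCR copies of a molecule count as separate reads, which can make the intervals too narrow even for that. Steps were tested on simulated counts. Merged exon lengths came from GENCODE M21, and gene locations and promoter windows from RefSeq GRCm38. The deposited tables place 3 of the 80 genes (Hdac4, Chd7 and Setd6) at loci other than RefSeq's and give Hdac1 none. Named genes are, per comparison, up to 12 in each direction past 2-fold with a mean of at least 100, the most abundant of each family per length, 18 fixed genes and the ends of each further list, and others named were chosen after their values were seen. Results of 2 genes that the rule names are not reported here. The genes and lists were chosen with earlier results of these data known. The alternatives were total-read scaling, recentring on ribosomal proteins, pairwise size factors, the deposited fold changes, a mean of at least 100, a pseudocount of 10, calls by the counting interval, and 2 added after seeing the data. Computations used Python 3.11.15, numpy 2.4.6, pandas 2.3.3 and scipy 1.17.1.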

Additional observations from a re-analysis of the deposited data

How the results depend on the processing

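Of the 37 genes named by rule, 0 that were past 2-fold changed sign under any alternative. This was fixed in advance, since shifts of 0.58 or less in log2 ratio cannot reverse a ratio past 1. Total-read scaling put 95 log2 ratios of these genes outside their counting intervals and left 16 inside. Recentring on ribosomal proteins put 74 outside and left 37 inside. Pairwise size factors, and leaving out Smarca5-ps and the 4 genes with no location or another locus in the tables (added after seeing the data), moved no count by over 1.5 times. Scaling by total reads, which shifted the median of all genes by -0.15, 0.17 and 0.32 at 4 h over 0 h, 24 h over 0 h and 24 h over 4 h, gave 6 lower at 24 h over 0 h (7.59%, near the 6.73% of all genes) and, at 24 h over 4 h, 6 higher, 17 lower and a median of -0.22. Recentring on ribosomal proteins, which shifted it by -0.58 and -0.47 in the comparisons with 24 h, gave 0 higher, 34 lower (25.1% of all genes) and a median of -0.93 at 24 h over 0 h, and a median of -1.01 at 24 h over 4 h. The deposited fold changes gave 3 higher and 1 lower at 4 h over 0 h, 0 higher and 5 lower at 24 h over 0 h, and 1 higher and 17 lower at 24 h over 4 h, since they are shrunken. A mean of at least 100 and the counting interval each gave 0 higher at 24 h over 0 h and 1 higher at 24 h over 4 h, and a pseudocount of 10 gave 0 higher at 24 h over 0 h. Among genes within the length quartiles, added after seeing the data, 7 were higher and 1 lower at 4 h over 0 h, 0 higher and 6 lower at 24 h over 0 h, and 0 higher and 11 lower at 24 h over 4 h, with fewer genes tested. Leaving out a library was not possible with 1 per time point, and no paired analysis was possible because no time point has a replicate. Depth limits Tet1, Smarcd3, Hdac11 and Dnmt3b, whose intervals are wide.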

Other observations

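The 5 genes left out because they lie on chromosome X or Y had the following whole reads at 0, 4 and 24 h. The X-linked demethylase genes Kdm5c and Kdm6a had 4749, 3018 and 1654 reads and 1623, 1159 and 922 reads, and the X-linked deacetylase genes Hdac6 and Hdac8 had 466, 388 and 385 and 177, 111 and 200. Kdm5d, the Y-linked relative of Kdm5c, had 1, 817 and 717 reads. Reads of all 80 chromatin genes together made up 0.637%, 0.766% and 0.466% of the libraries at 0, 4 and 24 h.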
